A study of Homo sapiens with 2 samples.

Results

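The genes described here are the nuclear genes of the mitochondrial ribosomal proteins, named MRPL for the large and MRPS for the small subunit. They were taken from the deposited expression table as the protein-coding rows whose symbol starts with MRPL or MRPS followed by a digit, which gave 78 of 58735 genes, 49 of them MRPL and 29 MRPS. They lay on 21 chromosomes. The study asked what the loss of FKBP9, a peptidyl-prolyl isomerase of the endoplasmic reticulum, does to glioblastoma cells. RNA-Seq was made from SF-539, an established human glioblastoma line that the labels describe as epithelial glioma cells from brain at passages 15-18, grown in DMEM with FBS. The shControl cells carried the pGIPZ-CTRL lentivirus and the shFKBP9 cells a pGIPZ lentivirus with an FKBP9 shRNA, and both had been selected with puromycin as stable clones. Each condition had 1 library, so no difference between them has a replicate check. How many clones each library holds, and which FKBP9 shRNA it carries, is not given in the sources used here.

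Mitochondria translate a small set of respiratory chain subunits on their own ribosomes. The rRNAs of these ribosomes are made from the mitochondrial genome, whereas every protein is encoded in the nucleus, translated in the cytosol and imported. Some of the proteins descend from bacterial ribosomal proteins and others were added in mitochondria, and transcription factors such as NRF1, GABPA (an ETS family factor) and YY1 are known to bind the promoters of many nuclear genes for mitochondrial proteins.

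The values were deposited as FPKM, fragments scaled by gene length and library size, and the fragments on each gene could be recovered from them, 18116873 in all in shControl and 17158514 in shFKBP9. FKBP9 itself (chromosome 7, 32957404 to 33006931 of hg38) was at 49.8 FPKM (4659 fragments) in the control library and 4.68 FPKM (415 fragments) in the knockdown library, where 9.39% of its level was left. Of the markers examined, VIM, FN1, COL1A1 and CD44 were at 48.6 FPKM or more in both libraries. Of the glial markers, NES was at 2.36 and 2.17 FPKM, GFAP, OLIG2 and SOX2 were below 1 FPKM, S100B had 1 fragment in all and AQP4 none. The epithelial markers EPCAM, KRT18 and KRT5 were also below 1 FPKM, KRT8 was at 1.28 and 1.09 FPKM, and CDH1 had 1 fragment in all, so most defining markers of glia and of epithelium were at or near 0. Of the blood and endothelial markers, PTPRC had no fragment, PECAM1 and CDH5 had at most 7 fragments in either library, and CD74 was at 9.78 and 9.64 FPKM.

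Across the family, levels were close to equal in the control and FKBP9-depleted cells. The summed FPKM of the 78 genes was 1841 in shControl and 1830 in shFKBP9, a log2 ratio of -0.01. As fragments, the sum was 72967 in shControl and 68422 in shFKBP9, or 0.403% and 0.399% of all fragments on genes. The log2 ratio of these sums was -0.02, with an interval from -0.03 to -0.00096. This ratio takes the library sizes behind the FPKM, which differ slightly from the totals of all fragments on genes. Under scaling by the median ratio of genes the ratio of the summed FPKM was 0.0077, and the interval of the summed fragments ran from -0.01 to 0.02. All intervals given here are exact Clopper-Pearson intervals at 95% from the fragments of both libraries, and they cover counting error only. In RNA from whole cultures, fewer cells of a type and less RNA per cell cannot be told apart.

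The members differed far more from each other than between the libraries. Within shControl the FPKM spanned 122-fold and within shFKBP9 235-fold, yet 9 of the 10 most abundant members were the same in both, and the rank correlation of the 78 levels between the libraries was 0.993 (Spearman, a description across genes that share 2 libraries). By the mean of both libraries the most abundant was MRPL41, a large subunit protein added in mitochondria, with 112 FPKM in shControl and 117 in shFKBP9. MRPL14, a protein of bacterial type at the face toward the small subunit, had 111 and 117 FPKM, and MRPL51, added in mitochondria, had 107 and 121, the highest level in shFKBP9. These 3 were the members above 100 FPKM in both libraries, and together they held 18.0% of the summed FPKM in shControl and 19.4% in shFKBP9. By the same mean MRPL37 followed with 71.8 FPKM in shControl and 72.1 in shFKBP9, and then MRPS34, the most abundant small subunit gene, with 64.2 and 63.1. In each library 53 members lay between 10 and 100 FPKM and 22 below 10. Large subunit genes had a median of 21.3 FPKM in shControl and 19.8 in shFKBP9, and small subunit genes one of 10.8 and 11.2.

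At the other end of the range, MRPS17, a small subunit protein of bacterial type, was below 1 FPKM in both libraries, with 0.921 in shControl and 0.513 in shFKBP9. MRPL38 was at 1.09 and 0.604 FPKM, and MRPL42 at 1.10 and 1.25. MRPL46 had 2.14 and 1.77 FPKM and MRPL48 had 2.01 in both. FPKM divides by the deposited gene length, so ranks across genes depend on it. That length is 16393 bases for MRPL42 (677 fragments in both libraries together) and 6432 for MRPL46 (444 fragments), against 1262 for MRPL41. In GENCODE release 44, MRPS17 shares 25% of its exon bases with other genes and MRPL38 45.1%. MRPL38, MRPL46 and MRPL48 belong to the central protuberance of the large subunit, the knob that faces the small subunit. Of all 78 members, 77 reached 1 FPKM in at least 1 library and 76 in both.

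**Figure D1:**
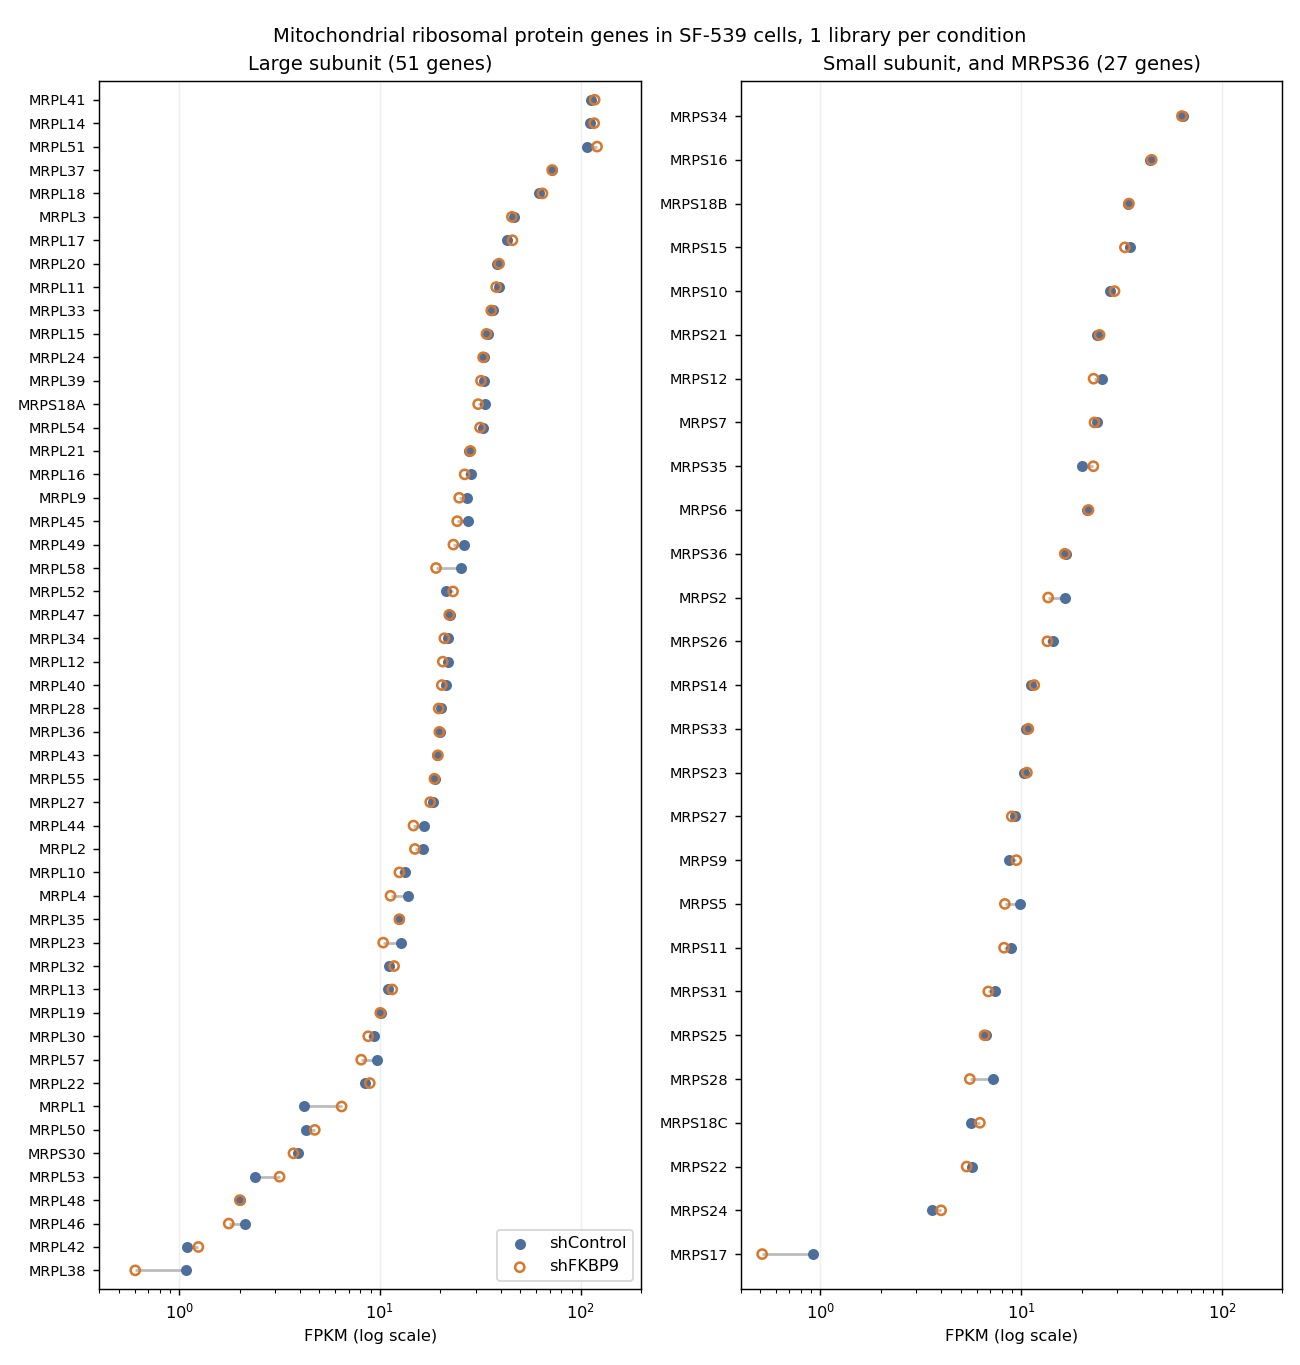
Level of each of the 78 genes in FPKM on a log axis, with the large subunit on the left and the small subunit and MRPS36 on the right, sorted by mean level. Filled points are the shControl library and open points the shFKBP9 library (1 library each), joined by a grey line. For most genes the points overlap, and the widest gaps are those of MRPL38, MRPS17 and MRPL1, all with under 7 FPKM.

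The promoters of 4 members are printed because they carry the searched cores of the factors named above and because 2 of them, MRPL58 and MRPL51, belong to members whose fragments differed between the libraries. Each is the 250 bases before the start site of RefSeq's first listed transcript in GRCh38.p14, 5′ to 3′ on the strand of the gene. Capitals mark a match on either strand to the NRF1 core GCATGCGC, the ETS core CCGGAAG or the YY1 core AAGATGGC. MRPL58 (chr17:75012420-75012669, plus strand) has 2 ETS cores. MRPL51 (chr12:6493263-6493512, minus strand) has 2 ETS cores here and a YY1 core in the 50 bases after the start, not printed. MRPL32 (chr7:42932126-42932375, plus strand) has a YY1 and an NRF1 core, and MRPL52 (chr14:22829637-22829886, plus strand) has 1 NRF1 core, 2 YY1 cores and an ETS core that begins in the last printed bases and runs past the start. These start sites can lie inside the deposited gene, as for MRPL51, whose deposited span is 6491886 to 6493841 on chromosome 12.
MRPL58: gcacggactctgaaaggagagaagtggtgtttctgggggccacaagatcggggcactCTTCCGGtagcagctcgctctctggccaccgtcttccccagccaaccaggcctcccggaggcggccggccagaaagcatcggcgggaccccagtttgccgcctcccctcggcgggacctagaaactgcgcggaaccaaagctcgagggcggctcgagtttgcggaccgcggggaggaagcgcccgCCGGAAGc
MRPL51: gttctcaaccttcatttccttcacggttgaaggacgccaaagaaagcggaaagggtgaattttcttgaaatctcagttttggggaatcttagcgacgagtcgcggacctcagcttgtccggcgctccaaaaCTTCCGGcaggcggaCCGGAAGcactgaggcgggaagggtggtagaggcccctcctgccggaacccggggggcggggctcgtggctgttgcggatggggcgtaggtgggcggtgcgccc
MRPL32: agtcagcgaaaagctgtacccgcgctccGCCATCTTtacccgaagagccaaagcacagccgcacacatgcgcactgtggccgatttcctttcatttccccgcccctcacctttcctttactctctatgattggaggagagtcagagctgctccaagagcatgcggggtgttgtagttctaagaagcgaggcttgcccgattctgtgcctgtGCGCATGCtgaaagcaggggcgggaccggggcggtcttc
MRPL52: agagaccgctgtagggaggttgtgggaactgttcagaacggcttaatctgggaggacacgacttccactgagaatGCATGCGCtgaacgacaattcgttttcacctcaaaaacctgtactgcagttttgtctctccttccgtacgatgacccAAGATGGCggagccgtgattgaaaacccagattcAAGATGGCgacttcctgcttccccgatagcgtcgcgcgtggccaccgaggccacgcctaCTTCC

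Over the whole family, 69 of the 78 genes had a RefSeq window of 250 bases before and 50 after the start. The YY1 core was found in 20 of them (29.0%), against 6.01% of the 8303 protein-coding genes with a window and at least 1 FPKM. The ETS core was found in 29 (42.0%), against 21.0%, and the NRF1 core in 6 (8.70%), against 5.90%. At least 1 of the 3 cores stood in 42 member windows (60.9%), against 29.4%. A match describes the letters only and is not shown to be a bound site.

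The change of a gene is given as log2 of (FPKM + 0.1) in the knockdown library over (FPKM + 0.1) in the control library. The intervals refer to the ratio with nothing added, which was -0.85 in place of -0.75 for MRPL38, a gene at about 1 FPKM. The median over the 77 members that reached 1 FPKM was -0.03 (quartiles -0.10 and 0.05), and the median over the 10346 protein-coding genes with the same minimum was -0.02. Of the members, 30 were above 0 and 47 below, and the ratios ran from -0.75 to 0.61. No member passed 2-fold in either direction, where 2.02% of all genes were past 2-fold higher and 2.19% past 2-fold lower. Among protein-coding genes these shares were 0.213% and 0.193%.

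The spread of the members was narrower than that of the genes around them. The median size of the log2 ratio, sign ignored, was 0.0741 for the members, 0.134 for protein-coding genes and 0.138 for the protein-coding genes in the same range of fragments. The FPKM of 67 members differed by less than 1.2-fold between the libraries and that of 75 by less than 1.5-fold, the exceptions being MRPL38, MRPS17 and MRPL1. Members had between 55 and 6467 fragments in both libraries together, with a median of 1479, and the median width of the interval was 0.30. The 10495 protein-coding genes in that range had a median of 1014 fragments, so the depth of the 2 sets was not matched. The interval lay wholly within 1.5-fold for 72 members and within 2-fold for 76, all but MRPL38 and MRPS17, and it included 0 for 62.

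The fragments of each gene were also compared between the libraries by an exact binomial test, two-sided, with Benjamini-Hochberg adjustment over the 17105 genes with at least 10 fragments. This test compares the 2 libraries, not the conditions, and a gene was called where its adjusted p was under 0.05. Of the 78 members, 10 were called (12.8%), 2 higher in shFKBP9 (2.56%) and 8 lower (10.3%). Over all genes tested 10.0% were called higher and 11.6% lower, over protein-coding genes 12.3% and 14.5%, and over protein-coding genes in the members' range of fragments 12.2% and 14.4%. The share of members called lower was thus close to that of all genes and below that of protein-coding genes. The share called higher was below those of both.

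**Figure D2:**
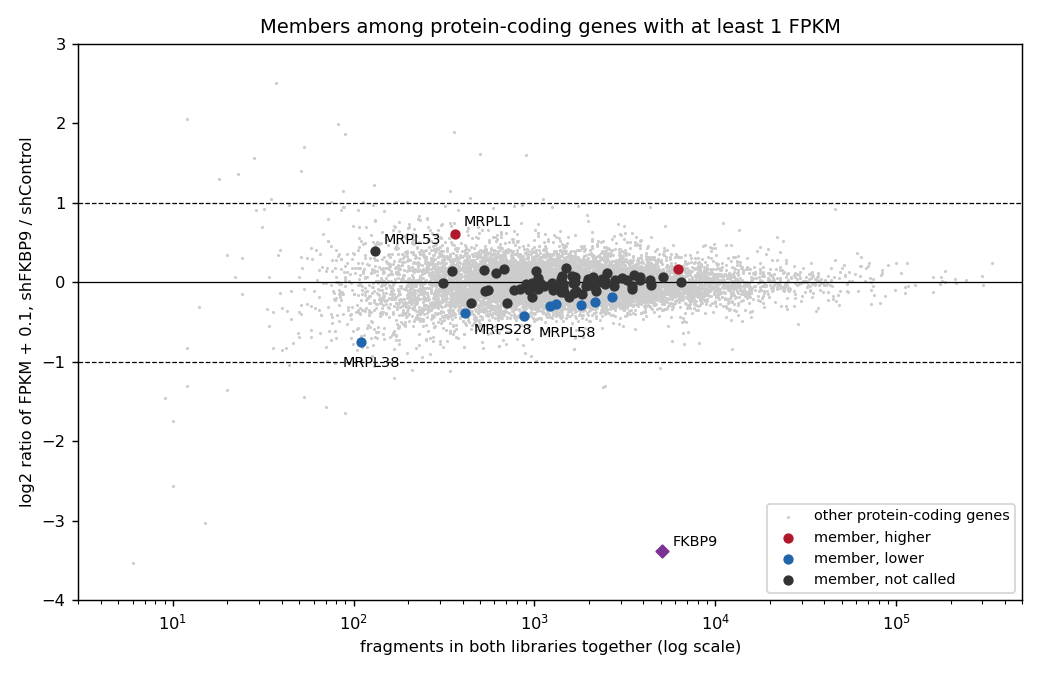
Log2 ratio of FPKM + 0.1 (shFKBP9 over shControl) against fragments in both libraries together on a log axis, for protein-coding genes that reached 1 FPKM in a library. Members are the large points, red where called higher, blue where called lower and dark where not called, other genes are grey, and FKBP9 is the diamond at -3.38. Dashed lines mark 2-fold, and the members sit between -0.75 and 0.61.

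The members called higher were MRPL1 and MRPL51, both of the large subunit. MRPL1, of bacterial type, forms the mobile stalk beside the site where empty tRNA leaves. It was at 4.18 FPKM (147 fragments) in the control library and 6.45 FPKM (215 fragments) in the knockdown library. Its log2 ratio of 0.61 (interval 0.32 to 0.94) was the highest of all members, with an adjusted p of 0.000514 in the exact binomial test. MRPL51, one of the promoters printed above, rose from 3009 to 3213 fragments, with a log2 ratio of 0.17 (interval 0.10 to 0.24) and an adjusted p of 3.46e-05 in the same exact binomial test. In GENCODE release 44, 27.6% of the exon bases of MRPL51 are shared with exons of NCAPD2, which was itself called lower (6472 fragments in shControl, 5325 in shFKBP9), while MRPL1 shares none. Whether the counting used strand is not given in the sources used here.

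Among the members called lower, MRPL58 had the largest difference at more than 5 FPKM. MRPL58 (chromosome 17, 75012670 to 75021261) resembles the factors that release finished proteins and sits in the central protuberance, where it can free stalled peptides. Its level was 25.5 FPKM (511 fragments) in the control library and 19.0 FPKM (362 fragments) in the knockdown library, or 74.7% of the control level. The log2 ratio was -0.42 (interval -0.62 to -0.22), with an adjusted p of 0.000261 in the exact binomial test. It shares no exon bases with another gene in GENCODE release 44.

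MRPL38, also of the central protuberance, had the lowest ratio of the family, from few fragments. It was at 1.09 FPKM (72 fragments) in the control library and 0.604 FPKM (38 fragments) in the knockdown library. The log2 ratio was -0.75 with 0.1 added, and the interval ran from -1.45 to -0.26 (adjusted p 0.0179, exact binomial test). Of its exon bases, 45.1% are shared with other genes in GENCODE release 44. The only member with a comparable ratio, MRPS17 (log2 ratio -0.74, from 36 fragments and 19), was not called, with an adjusted p of 0.141 in the exact binomial test.

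MRPL58 and MRPL38 were added in mitochondria, and the large subunit proteins of bacterial type that were called lower were MRPL23 and MRPL4. MRPL23 lies at the exit of the peptide tunnel and had 12.8 FPKM in shControl and 10.4 in shFKBP9 (688 and 530 fragments), a log2 ratio of -0.30 (interval -0.47 to -0.13). MRPL4, whose bacterial counterpart lines the tunnel, had 13.8 and 11.3 FPKM (1016 and 789 fragments), a log2 ratio of -0.29 (interval -0.42 to -0.15). MRPL49, also added in mitochondria, had 26.3 and 23.2 FPKM (1467 and 1228 fragments), a log2 ratio of -0.18 (interval -0.29 to -0.07). The adjusted p in the exact binomial test was 0.00301 for MRPL23, 0.00031 for MRPL4 and 0.00966 for MRPL49. Of their control FPKM, 81.2% remained for MRPL23, 81.9% for MRPL4 and 88.3% for MRPL49, and 11.6% of the exon bases of MRPL49 are shared with SYVN1, which was itself called lower (1289 fragments in shControl and 1044 in shFKBP9).

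In the small subunit 3 of 26 members were called lower (11.5%, beside 14.5% of protein-coding genes), all of bacterial type, and none was called higher. MRPS28 had 7.26 FPKM in shControl and 5.55 in shFKBP9 (239 and 173 fragments), a log2 ratio of -0.38 (interval -0.68 to -0.10). MRPS2 had 16.5 and 13.6 FPKM (735 and 576 fragments), a log2 ratio of -0.27 (interval -0.43 to -0.12). MRPS5, whose bacterial counterpart lies by the entry of the mRNA channel, had 9.87 and 8.29 FPKM (1201 and 956 fragments), a log2 ratio of -0.25 (interval -0.38 to -0.13). The adjusted p in the exact binomial test was 0.0379 for MRPS28, 0.00499 for MRPS2 and 0.000628 for MRPS5. MRPS28 was no longer called when every gene with at least 1 fragment entered the adjustment. Of the 10 members called in either direction, 5 share more than 20% of their exon bases with another gene in GENCODE release 44, as do 20 of all 78. Without those 20 members, 1 was called higher and 4 lower of 58.

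The other members with ratios far from 0 did not pass the test. MRPL53 was at 2.38 FPKM in shControl and 3.16 in shFKBP9 from 58 and 73 fragments, and its interval ran from -0.11 to 0.93. MRPS35, a small subunit protein added in mitochondria, was at 20.1 and 22.9 FPKM, with a log2 ratio of 0.18 (interval 0.04 to 0.33) and an adjusted p of 0.0575 in the exact binomial test. MRPL57 was at 9.71 and 8.07 FPKM (395 and 311 fragments, log2 ratio -0.27, adjusted p 0.0671, exact binomial test). MRPL53 shares 99.4% of its exon bases with CCDC142 and a readthrough gene, whereas MRPL57 and MRPS35 share none. MRPL57 was called under rescaling to TPM and MRPS35 under scaling by the median ratio.

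Ratios of MRPL42 (326 and 351 fragments, 0.17), MRPL50 (257 and 271, 0.15), MRPS24 (171 and 179, 0.14), MRPS9 (302 and 311, 0.12) and MRPL52 (1240 and 1276, 0.12) lay above 0 and were not called. Those of MRPL46 (249 and 195 fragments, -0.26), MRPL44 (527 and 441, -0.18) and MRPL45 (848 and 710, -0.18) lay below 0 and were not called either. MRPL45 contacts the inner membrane at the tunnel exit, and MRPL44 lies close to it.

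**Figure D3:**
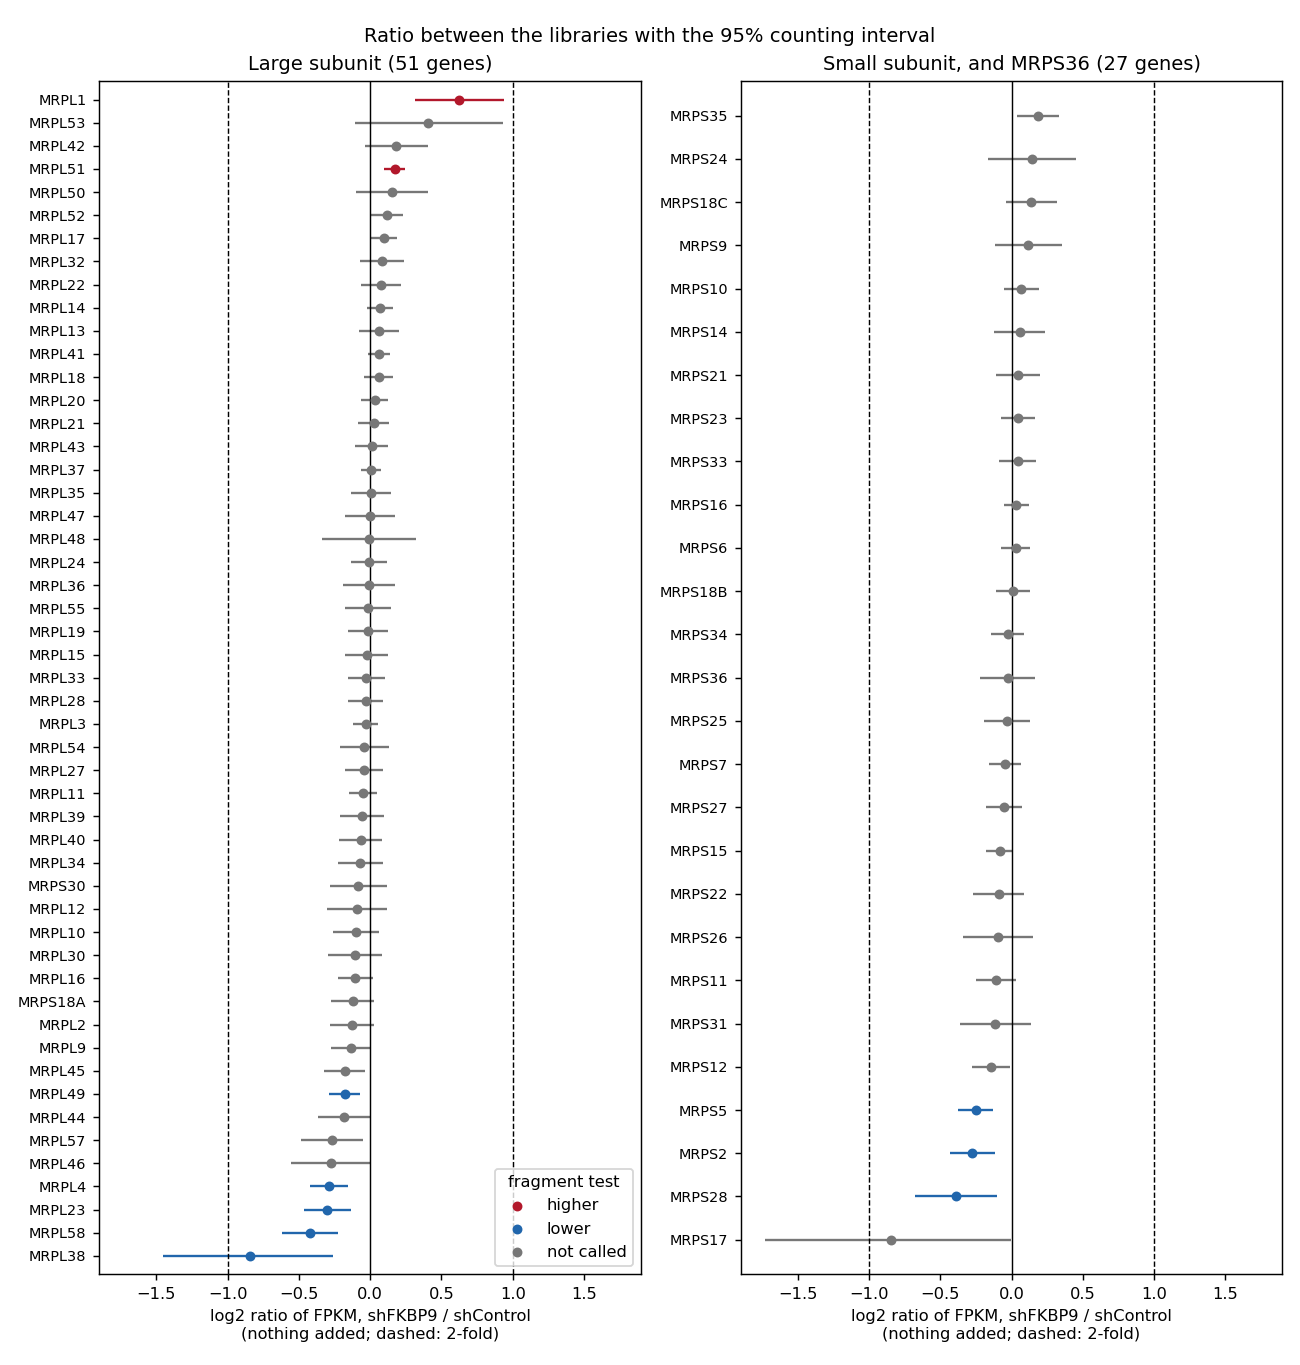
Log2 ratio of FPKM (shFKBP9 over shControl, nothing added) of each of the 78 genes, with the exact 95% counting interval as a horizontal line and dashed lines at 2-fold. Red points were called higher and blue points lower in the exact binomial test. Most intervals cross 0, and only those of MRPL38 and MRPS17 reach past 2-fold.

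Grouped by subunit and by origin, and with MRPS17 included, the members had medians close to 0. The 51 large subunit genes and the 26 small subunit genes each had a median log2 ratio of -0.03, with 2 called higher and 5 lower in the large and 3 lower in the small subunit, beside 12.3% higher and 14.5% lower of protein-coding genes. The 46 proteins of bacterial type had a median of -0.02 (1 called higher, 5 lower) and the 31 added in mitochondria one of -0.04 (1 higher, 3 lower). Of the 10 small subunit proteins counted as added in mitochondria none was called, and their ratios ran from -0.11 to 0.18. The 16 small subunit proteins of bacterial type had a median of -0.0080 (0.03 without MRPS17), and their summed fragments, 14492 in shControl and 13339 in shFKBP9, gave a log2 ratio of -0.04 (interval -0.08 to -0.0088). Under scaling by the median ratio of genes that interval ran from -0.06 to 0.0079. The median of protein-coding genes, -0.02, lay within this range of medians.

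Within the large subunit, 8 members were assigned to the central protuberance, and mitochondrial ribosome proteins under other names were not placed by site. Of the 8, 7 were below 0, with MRPL58 and MRPL38 called lower and a median of -0.05. Of all 77 members 47 were below 0, and 14.5% of protein-coding genes were called lower. The summed fragments of the 8 members, 4939 in shControl and 4484 in shFKBP9, gave a log2 ratio of -0.06 (interval -0.12 to -0.0041). Under scaling by the median ratio of genes 5 of the 8 were below 0, and that interval ran from -0.10 to 0.01. The exception in the deposited scaling was MRPL18, whose bacterial counterpart binds an rRNA in this knob and which was at 61.9 FPKM in shControl and 64.5 in shFKBP9. The 8 genes at the tunnel exit (MRPL17, MRPL22, MRPL23, MRPL24, MRPL39, MRPL44, MRPL45 and MRPL47) had a median of -0.03, with MRPL23 called lower. Of the 4 stalk genes, MRPL1 was called higher, beside 12.3% of protein-coding genes. MRPL10, MRPL11 and MRPL12, which hold or form the stalk that recruits translation factors, were between -0.10 and -0.05 and were not called. MRPL12 shares 69.5% of its exon bases with another gene in GENCODE release 44.

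Several members do not sit where their names place them. MRPS18A and MRPS30 are now assigned to the large subunit and were counted there, and MRPS36 is now regarded as a component of the oxoglutarate dehydrogenase complex and was counted in neither subunit. MRPS30 was at 3.93 FPKM in shControl and 3.71 in shFKBP9, and MRPS36 at 16.8 and 16.5. The paralogs of MRPS18A, which are MRPS18B and MRPS18C, belong to the small subunit. All 3 resemble the same bacterial protein, but MRPS18A and MRPS18B were counted with the proteins added in mitochondria because their place in the ribosome is not that of the bacterial protein, and MRPS18C with those of bacterial type. MRPS18A was at 33.6 and 30.8 FPKM (log2 ratio -0.12), MRPS18B at 34.2 and 34.4 (0.01) and MRPS18C at 5.65 and 6.22 (0.14). None of the 3 was called, and MRPS18C was the lowest of them by FPKM in both libraries. FPKM divides by the deposited gene length, which is 1284 bases for MRPS18A, 1888 for MRPS18B and 4866 for MRPS18C. In that order the genes held 1460, 2283 and 1018 fragments in both libraries together. MRPS18C shares 40.2% of its exon bases with ABRAXAS1 in GENCODE release 44. MRPS18A shares 50.9% of its exon bases with RSPH9, which held 45 fragments in shControl and 72 in shFKBP9.

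Genes that work with the family were examined as lists. The 6 mitochondrial ribosome proteins under other names (DAP3, PTCD3, CHCHD1, AURKAIP1, GADD45GIP1 and the membrane insertase OXA1L) had a median log2 ratio of 0.03 and none was called. Beside this, 12.3% of protein-coding genes were called higher and 14.5% lower. AURKAIP1 was at 98.0 FPKM in shControl and 97.0 in shFKBP9 and GADD45GIP1 at 75.7 and 80.2, levels within the range of the 5 most abundant members. OXA1L, at 22.5 and 20.7 FPKM, had the lowest ratio of the list (-0.12), and PTCD3, at 4.24 and 4.54 FPKM, the highest (0.09).

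Of 28 assembly factors, which modify rRNA and put the subunits together, 8 were called lower and none higher, and the median was -0.08. The lowest were the GTPase MTG1, from 148 fragments in shControl to 94 in shFKBP9 (log2 ratio -0.54), the rRNA methyltransferase MRM1, from 160 to 109 (-0.47), and MPV17L2, from 398 to 302 (-0.32). ERAL1, DHX30, RPUSD3, RCC1L and MTG2 were the others called, with ratios between -0.22 and -0.16. The highest ratios, those of MTERF3 (0.26), RBFA (0.23) and METTL15 (0.13), were not called. The share called lower, 28.6%, compares with 14.5% of protein-coding genes and 10.3% of the members. Called higher were 12.3% of protein-coding genes and 2.56% of the members.

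Of 15 mitochondrial translation factors, 3 were called lower and 2 higher (median -0.01), where 14.5% of protein-coding genes were called lower and 12.3% higher. TUFM, the elongation factor that brings tRNA to the ribosome, fell from 107 to 87.9 FPKM (4393 and 3427 fragments, log2 ratio -0.28, interval -0.35 to -0.22). GFM2, a ribosome recycling factor, was called lower (-0.26), as was TACO1 (-0.18), an activator of cytochrome oxidase translation. GUF1 (0.21) and LRPPRC (0.14), which stabilizes mitochondrial mRNA, were called higher, and the initiation factor MTIF3 (193 and 208 fragments, 0.18) was not called. Of 10 genes for transcription and maintenance of mitochondrial DNA, the polymerases POLG (-0.32) and POLRMT (-0.20) were called lower and TFAM (0.22), which packages the DNA, higher. MTERF1 (0.31) had the highest ratio of that list and was not called, nor were POLG2 (0.13) and TEFM (-0.13). The 3 calls among these 10 genes stand beside the same shares of protein-coding genes.

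The mitochondrial genome supplies the rRNA of the same ribosomes. MT-RNR2, the large subunit rRNA, held 17091 fragments in shControl and 22201 in shFKBP9, or 605 and 829 FPKM, and was called higher (log2 ratio 0.45, interval 0.43 to 0.48). MT-RNR1, the small subunit rRNA, held 3196 and 3120 fragments, or 185 and 190 FPKM, and was not called (0.04, interval -0.03 to 0.11). The intervals of the 2 rRNAs, which cover counting error only, did not overlap. The ratio of MT-RNR2 stood above that of every large subunit protein gene except MRPL1. The paper's methods do not state whether poly(A) RNA was selected or rRNA was depleted.

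Among 9 nuclear factors of mitochondrial biogenesis, 4 were called lower and none higher, and the median of the 7 that reached 1 FPKM was -0.09. Among protein-coding genes 14.5% were called lower and 12.3% higher. YY1, whose core stands in 20 of the member windows, fell from 25.2 to 18.0 FPKM (3983 and 2691 fragments), a log2 ratio of -0.49 (interval -0.56 to -0.42) and an adjusted p of 3.9e-40 in the exact binomial test. ESRRA (-0.23) and the coactivator PPRC1 (-0.22) were also called lower, as was PPARGC1B, which held 155 and 77 fragments and was below 1 FPKM in both libraries. NRF1 (464 and 414 fragments, -0.09), GABPA (547 and 587, 0.18), GABPB1 (343 and 393, 0.27) and MYC (967 and 931, 0.02) were not called.

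The members were also divided by the cores in their windows, as a description with no test. With the YY1 core the median log2 ratio was 0.0029, with 1 of 20 called higher and 1 lower, against -0.03 in the 49 members without it, with 1 called higher and 5 lower, where 12.3% of protein-coding genes were called higher and 14.5% lower. Over all genes with a window the medians were -0.03 with the core and -0.02 without. Members with the ETS core had a median of -0.03 and those without it one of -0.02. The 6 members with the NRF1 core, among them MRPL32 and MRPL52 printed above, had a median of 0.09 and none of them was called, and the 63 without it had one of -0.03. Over all genes with a window the medians were -0.0058 with the NRF1 core and -0.02 without.

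For comparison, the 85 genes of the cytosolic ribosomal proteins also had a median close to 0, at 0.01, with 46 above 0 and 36 below among the 82 that reached 1 FPKM. They were called more often, 25 higher and 15 lower of 83 tested (48.2%, against 12.8% of the members and 26.8% of protein-coding genes). They also held far more fragments, a median of 20505 per gene against 1479, so smaller ratios passed the same test. Among those that reached 1 FPKM the highest ratios were those of RPS27L (0.44), RPS29 (0.31) and RPL37A (0.21), all called higher, and the lowest those of RPL36A (-0.70) and RPL37 (-0.22), called lower, and RPL17 (-0.24), not called. The median size of the ratio was 0.0635 for the cytosolic and 0.0741 for the mitochondrial genes.

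**Figure D4:**
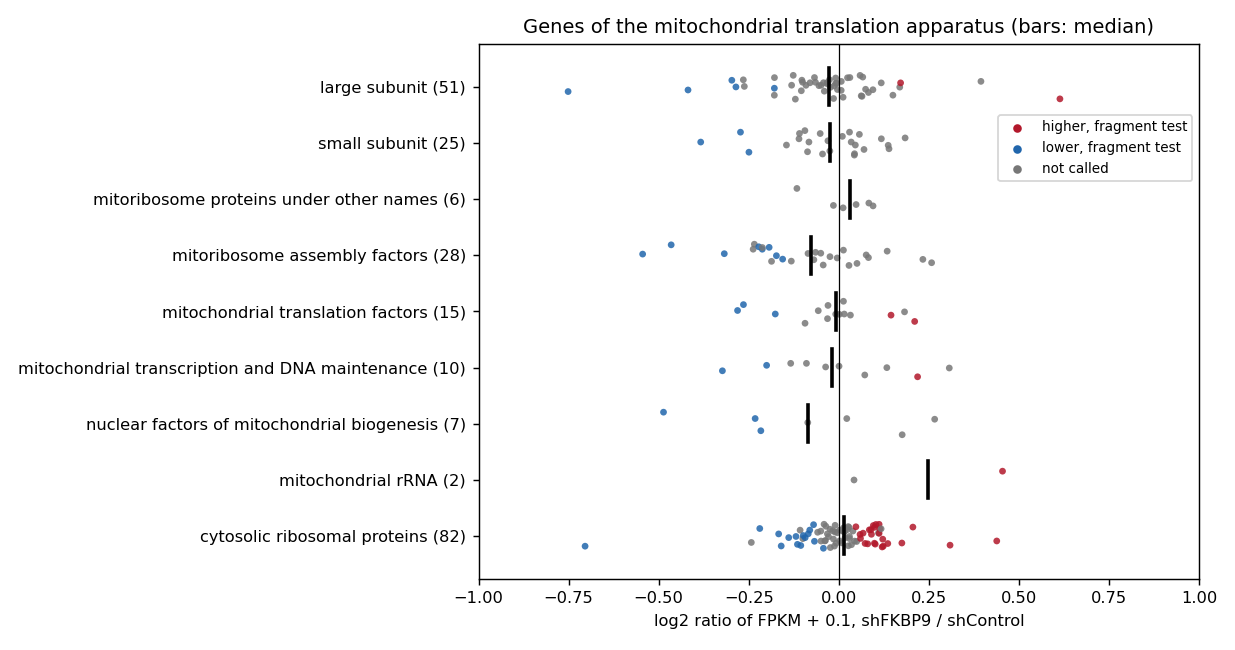
Log2 ratio of FPKM + 0.1 (shFKBP9 over shControl) of each gene that reached 1 FPKM, by list, with the number of genes in brackets and the list's median as a black bar. Red points were called higher and blue points lower in the exact binomial test. The medians of both subunits lie at -0.03, and those of the assembly factors and the proteins under other names at -0.08 and 0.03. The outermost medians are those of the nuclear factors of mitochondrial biogenesis (-0.09) and the mitochondrial rRNAs (0.25).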

How the data were processed

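RNA-Seq of SF-539 shControl and shFKBP9 cells was analysed, with 1 library per condition. The authors made the libraries with the NEBNext Ultra kit, removed adapter and low quality reads, aligned paired-end reads to hg38 with HISAT2 2.0.5, counted fragments with featureCounts 1.5.0-p3 and used edgeR, per the paper's methods and the submitters' processing notes. The authors deposited FPKM. The annotation release is not given in the sources used here.

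Fragments were recovered as FPKM times gene length over the smallest step of each library, and 100% of values above 0 were whole multiples (tolerance 1e-06). A fragment on 1 kb is 0.0552 FPKM in shControl and 0.0582 FPKM in shFKBP9. Log2 ratios used FPKM + 0.1, with a minimum of 1 FPKM in either library for medians and 2-fold counts. Fragments were tested by an exact binomial test (two-sided, Benjamini-Hochberg over genes with at least 10 fragments, expected share 48.6% in shFKBP9), with Clopper-Pearson intervals at 95%. With 1 library per condition the test compares libraries only, and a model of the conditions would have no residual degrees of freedom. The test and the recovery of fragments were tested on simulated data.

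Members and lists were chosen with earlier results of these data known. Subunit, origin and site of each member came from general knowledge. Named in full were the 10 highest and 10 lowest members with at least 1 FPKM and 50 fragments, the 5 most and 5 least abundant, the MRPS18 paralogs, members whose place differs from their name, members with a pseudogene or overlapping gene that bears on their value, FKBP9, and the 3 highest and lowest of each list. MRPL49, MRPL45, MRPL18, MRPL10, MRPL11, MRPL12, the other called genes of the lists, PPARGC1B, SYVN1, NCAPD2 and RSPH9 are outside that rule, and their values were known when they were picked. Shared exon bases were computed from GENCODE release 44, on either strand. All 78 members were found in it, 28 with the same start and end as in the deposited table, so these shares are approximate. Promoters were those of RefSeq (GRCh38.p14), with motifs searched on both strands. Alternatives were other additions to FPKM, 2 scalings, other minimums and sets for adjustment, and pseudogenes summed. Scripts ran on Python 3.11.15 with scipy 1.17.1, pandas 2.3.3, numpy 2.4.6 and, for the plots, matplotlib 3.10.9.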

Additional observations from a re-analysis of the deposited data

How the results depend on the processing

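No member passed 2-fold in either direction under any of the 7 alternatives tried for that count. The median log2 ratio of the members was -0.0093 under scaling by the median ratio of genes and -0.044 under rescaling to TPM, and the log2 ratio of the summed FPKM was 0.0077 and -0.027 under these scalings and -0.037 without the 5 most abundant members. These scalings shift every log2 ratio by 0.02 at most, and 10 members change sign between them, so the split of members above and below 0 (36 and 41 with the median ratio, 26 and 51 with TPM) rests on the scaling. In the exact binomial test all 10 calls were kept under each scaling and each alternative share, and MRPS28 alone was lost with every gene of at least 1 fragment in the adjustment. Gained were MRPS35 under median ratio scaling, under a share without mitochondrial-genome genes and the 10 largest genes, and under adjustment over protein-coding genes, and MRPL45 and MRPL57 under TPM. Leaving out the 20 members that share over 20% of exon bases gave 1 higher and 4 lower of 58. The members left out held 5 of the 10 calls. This alternative was chosen after seeing the data, like the TPM share, the share from the library sizes behind the FPKM and the sum over all pseudogenes. FKBP9 was at -3.16 with 1 added to FPKM. The scaling of the summed fragments and of the central protuberance, and medians with MRPS17, were also chosen after seeing the data. No paired analysis was possible because each condition has 1 library. For the same reason no replicate could be left out.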

Other observations

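The deposited table also lists 75 pseudogenes named after members, of which 16 had a fragment, 98 fragments in shControl and 97 in shFKBP9 in all. MRPL45P2, an unprocessed copy of MRPL45, held 63 and 74 of these, beside 848 and 710 on MRPL45. Adding the fragments of every pseudogene to its member kept all 10 calls of the exact binomial test and added none.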
